A study of Sus scrofa with 24 samples.

Results

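Colon was compared with ileum in sows fed a high-fibre diet without an additive. The comparison rests on 6 of the 24 libraries of the series, 3 labelled colon and 3 labelled ileum, chosen by their tissue and diet labels. The sows were female pigs at gestation day 114. The high-fibre diet (HF) held 7.46% crude fibre and 0% N-carbamylglutamate (NCG, an activator of carbamoyl phosphate synthetase). Of the other diets, LF held 3.73% crude fibre without NCG, LN held 3.73% with 0.05% NCG, and HN held 7.46% with 0.05% NCG. The trial enrolled 100 sows per diet, and each group of tissue and diet had 3 libraries of poly(A) RNA. The labels do not say whether the 3 libraries of a group are separate sows, nor whether colon and ileum libraries share sows, and the p-values below reflect library-to-library spread alone. The labels name neither the site along the ileum or colon nor the layers of the wall that were taken.

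The small intestine digests sugars, peptides and fat at the brush border of its absorptive cells and exports fat as chylomicrons, while its last stretch, the terminal ileum, takes up bile acids and cobalamin. The colon houses a dense microbiota that ferments fibre to short-chain fatty acids, which its epithelium takes up and oxidises, and it recovers salt and water beneath a thick mucus. Position along the gut is marked by homeobox (HOX) genes, whose higher-numbered members are expressed towards the anus, and by GATA4 in the proximal small intestine.

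The libraries labelled ileum HF did not carry 1 set of regional genes. GATA4, a transcription factor of the proximal small intestine, stood at 119.9, 0.689 and 149.5 CPM (read counts scaled to a common library size, TMM-normalised) in the libraries labelled ileum HF 1, 2 and 3. GIP, the hormone of the K cells of the upper small intestine, stood at 127.8, 0.94 and 140.3 CPM. FABP6, the bile acid binding protein for which the terminal ileum is known, stood at 3.68, 4262.3 and 13.4 CPM. Thus HF 2 had the bile acid genes and almost none of the proximal ones, and HF 1 and HF 3 had the reverse. SLC10A2, the ileal bile acid transporter, was at 0, 292.3 and 0.745 CPM, and CUBN, the cobalamin receptor, was at 1.25, 713.4 and 2.89 CPM. Over all diets, 9 of the 12 libraries labelled ileum had GATA4, PDX1 and GIP all above 20 CPM, 3 had FABP6, SLC10A2 and CUBN all above 20 CPM, and 0 had both. Among the HF libraries the ileal label was thus matched by these bile acid genes in HF 2 only. Counts of calls in the gene lists with several calls are given with all 3 ileum libraries, without HF 2, and without HF 1 and HF 3, and adjusted p values against HF 2 alone come from the last. That fit has 1 ileum library, which is assumed to vary like the other groups. Log2 CPM correlated at 0.975 across genes between ileum HF 1 and HF 3, and at 0.924 and 0.927 between HF 2 and these libraries. Between colon libraries the correlation was 0.97 to 0.976, and between the tissues it was 0.884 to 0.91.

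**Figure D1:**
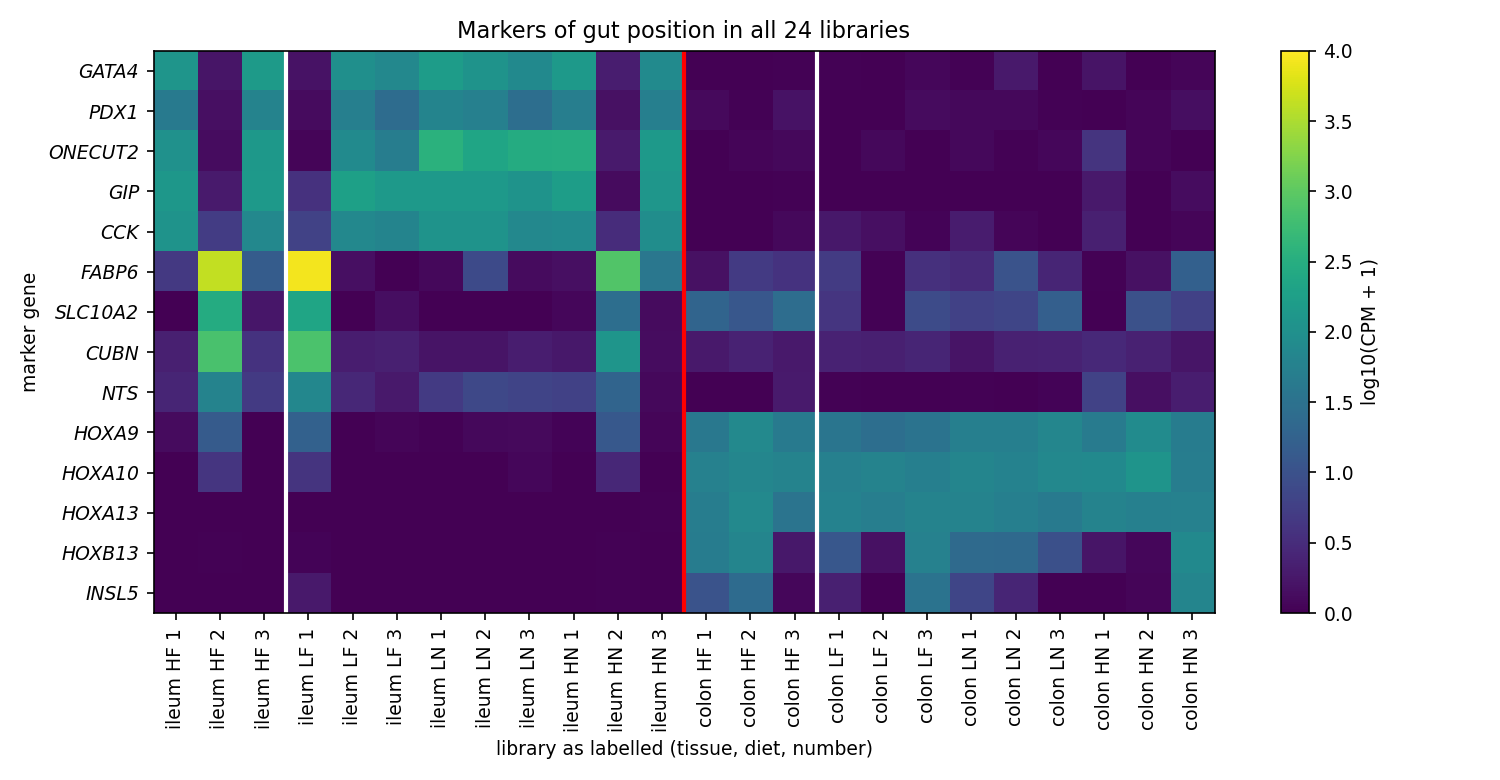
Levels of 14 genes that mark position along the gut (rows) in all 24 libraries (columns, as labelled), coloured by log10 of CPM + 1. The library labelled ileum HF 2 is dark for GATA4 (0.689 CPM) and GIP and bright for FABP6 (4262.3 CPM), while ileum HF 1 and HF 3 show the reverse, and all colon libraries carry HOXA13.

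Smooth muscle genes lay near the low end of the series on both sides. Mean log2 CPM of 17 such genes was 6.17 to 6.66 in the HF colon libraries and 5.83 to 6.23 in the HF ileum libraries, against 6.02 to 11.97 and 5.55 to 10.73 in colon and ileum libraries of the other diets. ACTG2, the enteric smooth muscle actin, stood at 158.0, 190.8 and 218.3 CPM in colon and 196.2, 180.8 and 272.5 CPM in ileum. EPCAM, an epithelial adhesion molecule, stood at 1072.6, 1239.4 and 1184.9 CPM in colon and 709.9, 539.1 and 823.5 CPM in ileum. None of the 12 tested genes of a pan-epithelial list passed the test in edgeR, DESeq2 or limma voom (0 with an unadjusted p under 0.05), while 3 were called higher in the 6 HF libraries alone. Their median log2 difference was 0.86, and 9 had all colon libraries above all ileum libraries, where 14.3% of all tested genes did. The part of these epithelial levels in the results was not tested. The other cell types differed between libraries of 1 tissue. B cell genes summed to 1418.9 CPM in the library labelled ileum HF 2 against 240.8 and 274.5 CPM in the other ileum libraries and 120.6 to 219.3 CPM in colon. A list of plasma cell, IgA and gut-homing genes, not limited to plasma cells, summed to 7797.7 CPM in ileum HF 2. The same list summed to 51462.2 and 71558.0 CPM in ileum HF 1 and HF 3. Adipocyte genes summed to 171.6 to 507.2 CPM in colon and 48.5 to 100.8 CPM in ileum. In bulk RNA, fewer cells of a type and less RNA per cell cannot be told apart. Total counts were 15499412 to 17792127 in the colon libraries and 11991258 to 14305761 in the ileum libraries. A count of 0 allows up to 3 counts, or 0.169 to 0.194 CPM in colon and 0.21 to 0.25 CPM in ileum, which covers counting error only.

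Between the tissues 476 of 15675 tested genes differed (3.04%), 200 higher in colon (1.28%) and 276 lower in colon (1.76%), by edgeR's quasi-likelihood test in one model of all 24 libraries with a Benjamini-Hochberg adjusted p under 0.05. Every adjusted p below comes from that test unless another is named, and each log2 difference is colon minus ileum, with ± its standard error where given. That standard error is the size of the difference divided by the square root of the test's F statistic, not a separate estimate. For genes near 0 counts in a tissue it depends, like the difference, on the prior count of the fit. Genes with large ratios of means on the ileal side included MGAM, SLC5A12, MTTP and APOB, of digestion and absorption, and on the colonic side MUC12, HOXA11 and HOXA13. An unadjusted p under 0.05 was reached by 2256 genes, and the median log2 difference of all tested genes was -0.06. The 3 and 3 libraries did not overlap for all 200 genes higher in colon and for 273 of the 276 lower ones. Among all tested genes this held for 2234 higher (14.3%) and 2474 lower (15.8%). These shares, and the 1.28% called higher and 1.76% called lower over all genes, are the background for every list count below.

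Which genes were called depended on the libraries included, of colon as well as of ileum. Without ileum HF 2, 146 genes were higher (0.921%) and 329 lower (2.07%) in colon, and they included 118 of the 200 and 252 of the 276. Without ileum HF 1 and HF 3, 8 were higher (0.0492%) and 61 lower (0.375%), and they included 8 of the 200 and 60 of the 276. Only 8 higher and 56 lower genes were called in all 3 fits. Among the 276 genes lower in colon, ileum HF 2 lay under each of HF 1 and HF 3 by more than 2-fold for 101 genes and above each by more than 2-fold for 10. For the 200 genes higher in colon these numbers were 2 and 16, and 182 genes met neither condition. A call missed in the fit with 1 ileum library therefore does not by itself show that HF 2 differed from the other ileum libraries. Leaving out 1 colon library gave 106 higher and 124 lower genes without HF 1, 111 and 136 without HF 2, and 114 and 125 without HF 3. Leaving out ileum HF 1 gave 76 and 153, and leaving out ileum HF 3 gave 78 and 146. In the 6 HF libraries alone, 811 genes were higher (5.65%) and 570 lower (3.97%), and these included 192 of the 200 and 249 of the 276. With the replicate number as a block in all 24 libraries, 123 genes were higher and 180 lower, 109 of the 200 and 161 of the 276 among them, and genes below that lose their call under this block are named with that p. In data simulated from these libraries with 15528 genes, 7% of 2-fold and 51% of 4-fold changes between HF colon and HF ileum were called. The changes were planted only in genes above a minimum mean count, so these shares do not cover low-count genes.

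**Figure D2:**
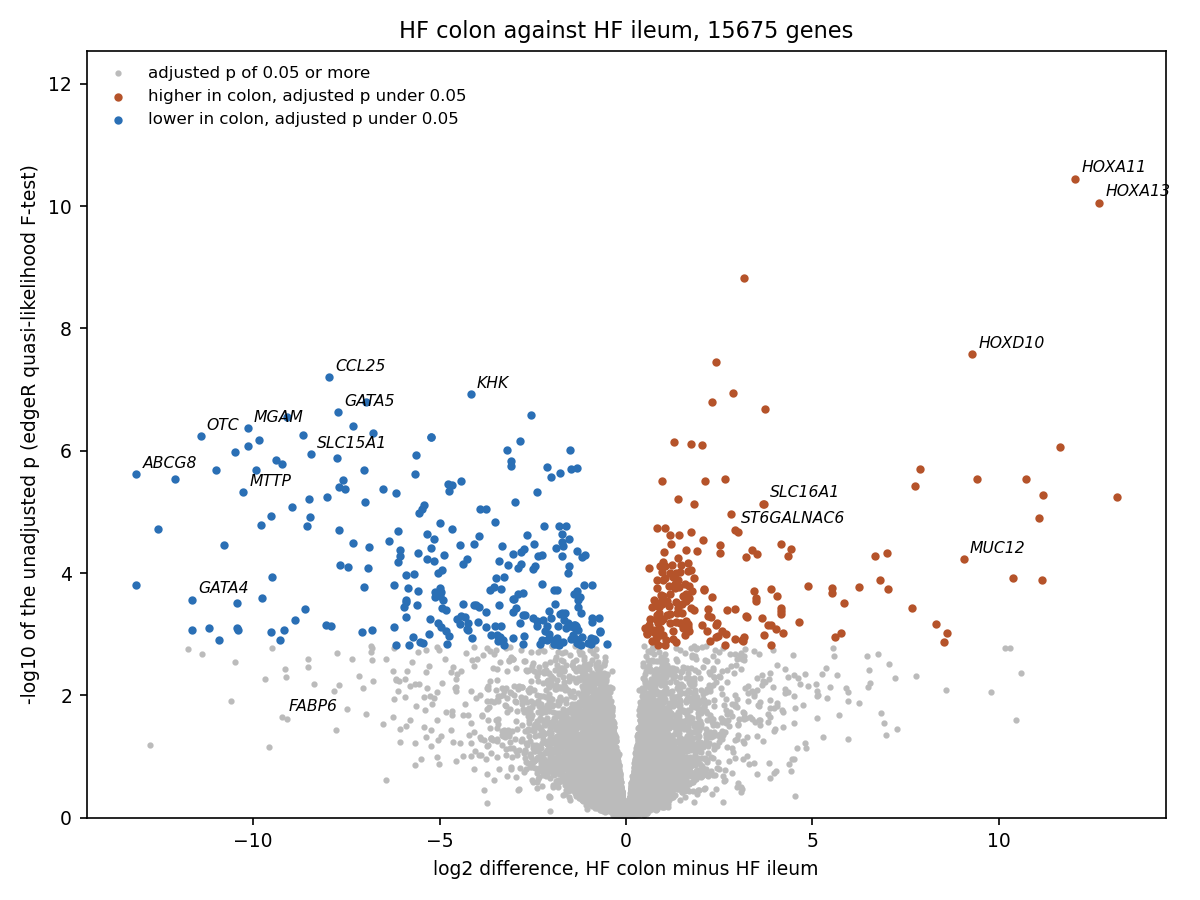
Log2 difference (x axis, colon minus ileum) and -log10 of the unadjusted p (y axis) of the 15675 tested genes, with the 200 genes higher in colon in orange and the 276 lower in colon in blue. Fitted differences of genes at 0 in a tissue, such as HOXA11 and HOXA13, depend on the prior count of the fit. FABP6, at 4262.3 CPM in 1 ileum library only, did not pass.

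HOXA11 and HOXA13 had the 2 smallest p among genes higher in colon. Of 29 HOX genes tested, 6 were higher in colon and 0 lower, with a median log2 difference of 1.89 against -0.06 over all genes and 1.28% called higher over all genes. HOXA11 (chromosome 18, 45388523 to 45392190 in Sscrofa11.1), a developmental regulator of the posterior body, stood at 27.8, 38.4 and 34.8 CPM in colon and at 0 in all 3 ileum libraries, at least 143.8-fold higher (adjusted p = 5.58e-07). HOXA13 (chromosome 18, 45373340 to 45379046), which patterns the hindgut, stood at 48.3, 75.6 and 33.5 CPM against 0, at least 224.2-fold higher (adjusted p = 6.88e-07). The groups did not overlap for either gene, and both were also called against ileum HF 2 alone (adjusted p = 0.000205 and 0.000276). HOXD10 (chromosome 15, 81911372 to 81921164) stood at 14.1, 27.2 and 20.8 CPM against 0, 0.0627 and 0 CPM (adjusted p = 0.000103). Its ileum level is a single count, which puts the ratio of means at 989.3 with a 95% exact counting interval of 147.8 to 32638.9. HOXD11 (chromosome 15, 81906654 to 81910765) stood at 4.14, 6.51 and 5.71 CPM against 0, at least 23.3-fold higher (adjusted p = 0.000859, and 0.142 with the replicate block).

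The lower-numbered HOX genes separated the ileum libraries from each other. HOXA9 stood at 38.3, 74.1 and 44.2 CPM in colon and at 0.313, 13 and 0 CPM in ileum HF 1, 2 and 3, with a log2 difference of 3.52 ± 1.64 (SE) and an adjusted p of 0.331. HOXB6 stood at 79.0, 100.5 and 114.4 CPM in colon and at 0.939, 75.9 and 2.05 CPM in ileum, so that HF 2 lay just under the colon libraries. HOXA10, at 57.1, 67.0 and 61.4 CPM against 0, 3.2 and 0 CPM, was called with all libraries (adjusted p = 0.037) and not against HF 2 alone (adjusted p = 0.577) or with the replicate block (0.0826). Among the omissions of 1 library it was called only without ileum HF 2 (up to 0.151 otherwise). HOXB13, the most posterior gene of its cluster, was high in colon HF 1 and HF 2 (47.4 and 65.3 CPM) and at 0.799 CPM in colon HF 3, against 0 to 0.0627 CPM in ileum (adjusted p = 0.0526, and 0.0165 with the replicate block). INSL5, a hormone of distal colonic L cells, was also lowest in colon HF 3 (9.73, 23.8 and 0.171 CPM) and was at 0 in ileum (adjusted p = 0.245). Colon HF 3 was thus low in HOXB13 and INSL5 while its HOXA13 level was 33.5 CPM. The HOX list kept 6 calls without HF 2 and 4 without HF 1 and HF 3.

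**Figure D3:**
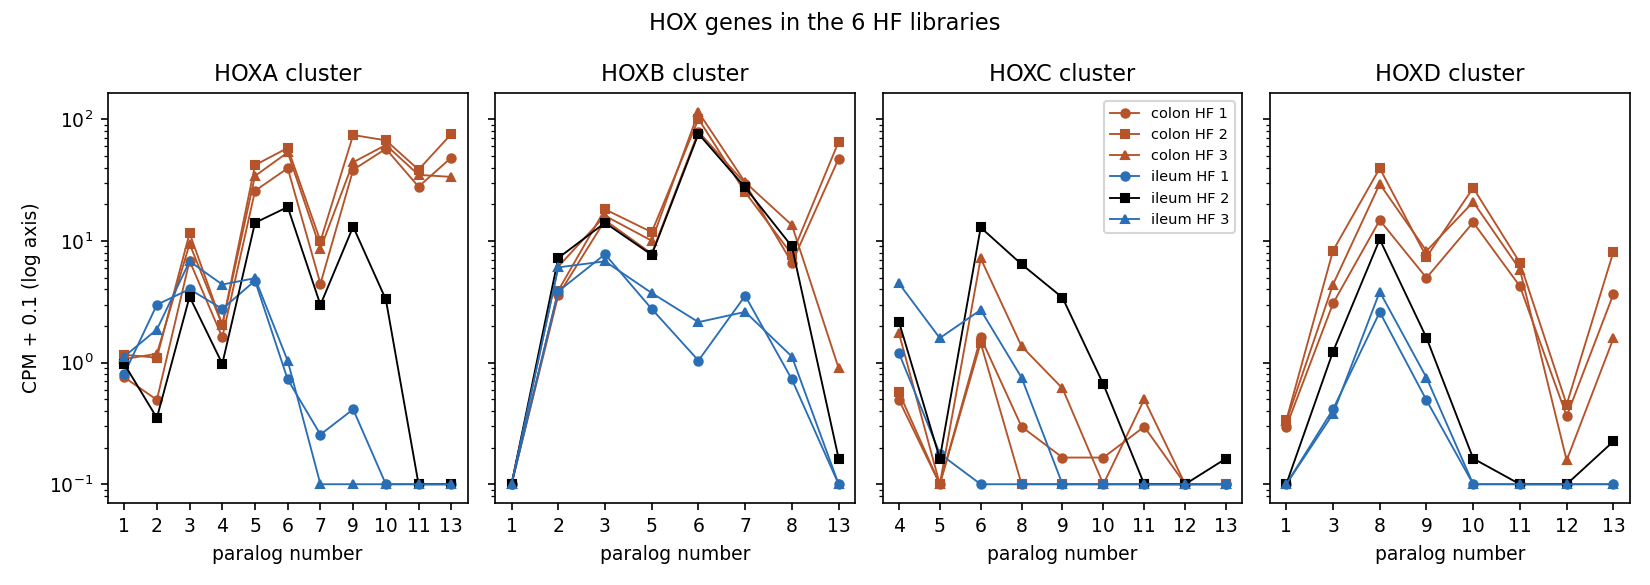
CPM + 0.1 (log axis) of the HOX genes by cluster and paralog number in the 6 HF libraries, colon in orange, ileum HF 1 and HF 3 in blue and ileum HF 2 in black. For HOXA11 and HOXA13 all ileum libraries are at 0, while for HOXA9 the ileum HF 2 level (13 CPM) lies between colon and the other ileum libraries.

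Other regulators of regional and epithelial identity were called in both directions, 4 higher and 4 lower of 37 tested (median -0.28). Over all genes 1.28% were called higher and 1.76% lower. GATA5, a small-intestinal GATA factor (chromosome 17, 61824891 to 61834742), stood at 0.263, 0 and 0.228 CPM in colon and 36.4, 37.8 and 32.8 CPM in ileum, a log2 difference of -7.72 ± 0.92 (adjusted p = 0.000302, and 0.00776 against HF 2 alone). The 3 ileum libraries were alike in GATA5 although they differed in GATA4, whose call (adjusted p = 0.0167) was lost without colon HF 1, 2 or 3 (highest adjusted p 0.102) and against HF 2 alone (0.799). CREB3L3, a membrane-bound activator of lipid transport genes, stood at 0.526, 1.06 and 1.43 CPM against 237.3, 163.7 and 238.3 CPM (adjusted p = 0.000995). CDX2, the intestinal master regulator, stood at 251.5 to 411.8 CPM in colon and 93.4 to 158.0 CPM in ileum (adjusted p = 0.618), and HNF4A differed by 0.08 ± 0.95 (adjusted p = 0.99). KLF4, a regulator of goblet cell and surface differentiation, stood at 427.1 to 485.3 CPM against 58.8 to 89.7 CPM. Its call (adjusted p = 0.0372), like those of FOXD2 and BARX1, was lost without any 1 of the 6 libraries (adjusted p up to 0.207 among these genes). With the replicate block the adjusted p was 0.112 for KLF4, 0.0627 for FOXD2 and 0.145 for BARX1, and the list had 0 higher and 5 lower calls. Without HF 2 it also had 0 higher and 5 lower calls, and without HF 1 and HF 3 it had 0 and 2.

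Brush-border hydrolases, which finish the digestion of sugars and peptides, had the lowest median of the 43 gene lists. Of 24 tested, 10 were lower in colon and 0 higher, with a median log2 difference of -4.74, where 1.76% of all genes were called lower. MGAM, maltase-glucoamylase (chromosome 18, 7871529 to 7997137), stood at 1.05, 1.64 and 1.37 CPM in colon and 1776.3, 1033.3 and 1851.1 CPM in ileum, a log2 difference of -10.15 ± 1.34 (adjusted p = 0.000421, and 0.00776 against HF 2 alone). SI, sucrase-isomaltase, stood at 9.07, 47.4 and 11 CPM against 319.3, 925.3 and 665.1 CPM (adjusted p = 0.0214). Neither gene overlapped between the tissues, but SI was not called without colon HF 1, colon HF 3 or ileum HF 3 (adjusted p up to 0.124). Among peptidases, ANPEP, which trims peptides from the amino end, stood at 54.4, 94.8 and 24.2 CPM against 1628.5, 3184.5 and 1325.2 CPM (-5.15 ± 0.93, adjusted p = 0.00391). MME (neprilysin) stood at 0.0657, 0.235 and 0.799 CPM against 140.9, 170.9 and 259.0 CPM (adjusted p = 0.00163). Some peptidases were highest in ileum HF 2: ENPEP stood at 1410.9 CPM there against 143.9 and 267.9 CPM, and MEP1A at 694.0 against 27.2 and 44.0 CPM, with 3.29 to 7.13 and 0 to 0.0586 CPM in colon. ACE, a dipeptidase, was the reverse, at 30.8 CPM in HF 2 against 251.9 and 231.4 CPM. Its call (adjusted p = 0.02) was lost with the replicate block (0.124), against HF 2 alone (0.814) and in every omission of 1 library but that of ileum HF 2 (up to 0.12). The list had 10 lower calls without HF 2, 6 without HF 1 and HF 3, and 3 to 10 without any 1 library. ENPEP (adjusted p = 0.00739) was not called without colon HF 1 or HF 2 (up to 0.0581), nor MEP1A (adjusted p = 0.012) without colon HF 1, HF 2 or HF 3 (up to 0.0772).

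Transporters of the products followed, with 16 of 25 lower in colon and 1 higher (median -2.23), where 1.76% and 1.28% of all genes were called. SLC15A1, the proton-coupled peptide transporter (chromosome 11, 67652808 to 67690457), stood at 0.197, 0.938 and 0.399 CPM in colon and 185.5, 189.4 and 174.5 CPM in ileum, a log2 difference of -8.45 ± 1.19 (adjusted p = 0.000553). Its level was nearly equal in the 3 ileum libraries. SLC2A2, the basolateral hexose transporter, was at 0 in all colon libraries and at 49.0, 25.9 and 30.0 CPM in ileum (adjusted p = 0.000859). SLC6A19, for neutral amino acids, stood at 0.0657, 0.176 and 0.171 CPM against 70.1, 146.6 and 80.8 CPM (adjusted p = 0.000632), and SLC7A9, for cystine and basic amino acids, at 0, 0.469 and 0.228 CPM against 73.7, 127.5 and 99.6 CPM (adjusted p = 0.000441). SLC28A2, a purine nucleoside transporter, stood at 0.0657 to 0.586 CPM against 38.9 to 49.1 CPM (adjusted p = 0.000414). The sodium-glucose transporter SLC5A1 kept a substantial colonic level, at 72.2, 162.0 and 78.8 CPM against 1098.8, 1121.3 and 984.7 CPM. Its log2 difference was -3.36 ± 0.83 (adjusted p = 0.0311), and the call was lost without any 1 of the 6 libraries (adjusted p 0.0528 to 0.159). SLC6A14, a broad amino acid transporter, was the member higher in colon, at 41.1, 50.7 and 41.1 CPM against 1.49, 3.26 and 2.42 CPM (adjusted p = 0.0362). That call was also lost without any 1 library (up to 0.171), and with the replicate block both SLC5A1 and SLC6A14 missed the threshold (0.0648 and 0.149). Lower calls numbered 13 without HF 2 and 5 without HF 1 and HF 3.

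Fat absorption genes were likewise lower in colon, 10 of 26 tested with 0 higher (median -2.03), where 1.76% of all genes were called lower. APOB, the structural protein of chylomicrons (chromosome 3, 117250096 to 117316200), stood at 0.789, 0.411 and 0.799 CPM in colon and 588.0, 507.7 and 709.7 CPM in ileum, a log2 difference of -9.8 ± 1.7 (adjusted p = 0.00281). MTTP, which loads lipid onto APOB, stood at 0.131, 0.235 and 0.514 CPM against 372.4, 227.0 and 528.6 CPM (adjusted p = 0.00114). The sterol exporter ABCG8 was at 0 in colon and at 78.8, 56.1 and 81.5 CPM in ileum, at least 397.4-fold lower (adjusted p = 0.000779), and its partner ABCG5 and the cholesterol importer NPC1L1 were also lower (adjusted p = 0.00136 and 0.00129). These 5 genes were called in every omission of 1 library and against HF 2 alone. The smaller apolipoproteins differed among the ileum libraries: APOA1 stood at 3512.5, 463.5 and 3092.5 CPM in ileum and 14.0, 19.1 and 26.5 CPM in colon (adjusted p = 0.00468, and 0.231 against HF 2 alone). APOA4 stood at 464.1, 33.3 and 270.4 CPM in ileum against at most 0.571 CPM in colon (adjusted p = 0.0361). Its call was lost without any colon library, without ileum HF 1 and without ileum HF 3 (up to 0.166). FABP2, the intestinal fatty acid binding protein, was lower in colon (216.6, 18.5 and 471.5 CPM in ileum against 0.131, 0.0586 and 1.26 CPM), with an adjusted p of 0.0277 that rose to 0.138 in the same omissions. FABP1 did not share the pattern, at 4236.7, 827.4 and 4967.1 CPM in colon and 4048.7, 229.5 and 4159.0 CPM in ileum (0.25 ± 1.42, adjusted p = 0.975). Both libraries numbered 2 were low in FABP1. The list had 10 lower calls without HF 2 and 5 without HF 1 and HF 3.

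Bile acid and cobalamin uptake, the known function of the terminal ileum, gave 3 lower calls of 16 tested (median -1.32). Over all genes 1.76% were called lower. The apical genes were high in ileum HF 2 alone, so FABP6 (-9.22 ± 3.72, adjusted p = 0.232), CUBN (-7.83 ± 2.66, adjusted p = 0.134) and SLC10A2 (-2.4 ± 2.38, adjusted p = 0.749) did not pass. SLC10A2 stood at 18.5 ± 7.41 CPM (SD, n = 3) in colon, all 3 libraries above ileum HF 1 and HF 3. The basolateral exporter subunit SLC51B was called, at 25.6, 8.56 and 23.6 CPM in colon and 193.3, 128.5 and 261.0 CPM in ileum (-3.33 ± 0.62, adjusted p = 0.00462), and ABCC2, an apical conjugate pump, stood at 2.7 to 3.65 CPM against 187.9, 38.9 and 244.1 CPM (adjusted p = 0.000779). FGF19 had 0 counts in all 6 libraries. Of 27 vitamin and mineral genes 4 were lower and 0 higher (median -1.76). CYBRD1, the duodenal iron reductase, stood at 181.7, 179.9 and 157.0 CPM in colon and 450.5, 709.7 and 734.6 CPM in ileum (adjusted p = 0.00482). RBP2, the cellular retinol carrier of absorptive cells, stood at 1159.9, 41.2 and 1454.8 CPM in ileum against 0.92 to 3.54 CPM (adjusted p = 0.0208). Its call was lost without any colon library, without ileum HF 1 and without ileum HF 3 (up to 0.121). Of 42 xenobiotic and steroid genes, 8 were lower and 0 higher (median -1.05), among them CYP3A29, a drug-oxidising cytochrome (1.97, 6.8 and 18.1 against 500.8, 213.1 and 572.7 CPM, adjusted p = 0.00532), and ALDH1A3, which makes retinoic acid (29.8 to 47.5 against 315.3, 108.7 and 248.9 CPM, adjusted p = 0.000309). Without HF 2 the bile acid list had 3 lower calls, the vitamin and mineral list 1 higher and 6 lower, and the xenobiotic list 1 higher and 12 lower. Without HF 1 and HF 3, 0 genes of these 3 lists were called.

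The enzymes that make citrulline were lower in colon. NCG, absent from this diet, acts on the first of them. CPS1, carbamoyl phosphate synthetase 1 (chromosome 15, 113210038 to 113339086), stood at 0, 3.28 and 0.285 CPM in colon and 1040.0, 365.0 and 1223.5 CPM in ileum, a log2 difference of -9.51 ± 1.6 (adjusted p = 0.00215). OTC, ornithine transcarbamylase (chromosome X, 34322398 to 34391711), stood at 0.0657, 0 and 0.228 CPM against 280.5, 96.8 and 500.8 CPM (-11.41 ± 1.53, adjusted p = 0.000441). OAT, which makes ornithine from proline and glutamate products (chromosome 14, 133808193 to 133830517), stayed measurable in colon, at 157.4, 177.2 and 102.7 CPM against 1332.6, 898.9 and 1763.2 CPM (-3.19 ± 0.45, adjusted p = 0.000516). All 3 were called in each omission of 1 library and against HF 2 alone (adjusted p = 0.0406, 0.00912 and 0.0463). The mitochondrial ornithine carrier SLC25A15 (adjusted p = 0.0116) and spermine synthase SMS (adjusted p = 0.00554) completed the 5 lower calls among 29 tested genes, with 0 higher (median -0.48). Over all genes 1.76% were called lower. SLC25A15 was not called with the replicate block (0.0627), against HF 2 alone (0.406), without any colon library or without ileum HF 3 (up to 0.064). The list had 7 lower calls without HF 2 and 3 without HF 1 and HF 3. NAGS, which makes the natural activator of CPS1, stood at 14.5, 8.91 and 8.62 CPM in colon and 29.9, 18.7 and 34.9 CPM in ileum (adjusted p = 0.444). ASS1, which uses citrulline, stood at 58.6, 44.9 and 170.8 CPM in colon and 5.87, 125.6 and 14.6 CPM in ileum (0.91 ± 1.11, adjusted p = 0.809), with HF 2 apart from the other ileum libraries.

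Enzymes of fructose use were lower in colon, and hexokinases differed in direction. KHK, ketohexokinase (chromosome 3, 112021163 to 112031615), stood at 10.5, 16.1 and 11 CPM in colon and 281.3, 151.2 and 245.8 CPM in ileum, a log2 difference of -4.17 ± 0.5 (adjusted p = 0.000231, and 0.0136 against HF 2 alone). TKFC, which phosphorylates glyceraldehyde from fructose, stood at 26.4 to 31.5 CPM against 310.4, 72.6 and 219.3 CPM (adjusted p = 0.00695). HK1, a hexokinase, was the list member higher in colon, at 343.5, 220.4 and 333.0 CPM against 80.6, 102.8 and 72.6 CPM (1.81 ± 0.29, adjusted p = 0.00153). HKDC1, another hexokinase, outside the list and named after its values were seen, was lower in colon, at 1.84, 3.64 and 5.19 CPM against 150.5, 119.1 and 201.8 CPM (log2 difference -5.46, adjusted p = 0.00171, and 0.0435 against HF 2 alone). The list held 1 higher and 4 lower calls of 27 (median -0.23), where 1.28% and 1.76% of all genes were called. FBP1, a gluconeogenic phosphatase, was also among the lower genes. FBP1 was not called without any colon library, without ileum HF 1 or without ileum HF 3 (adjusted p up to 0.0753). Against HF 2 alone TKFC (0.639), FBP1 (0.643) and HK1 (0.246) were not called, and the list had 0 higher and 1 lower calls, against 1 and 4 without HF 2. With the replicate block the list had 1 higher and 2 lower calls, TKFC and FBP1 missing the threshold (adjusted p = 0.0666 and 0.119).

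Signals that draw lymphocytes to the small intestine were lower in colon. CCL25, the chemokine of small-intestinal epithelium (chromosome 2, 71175066 to 71206950), stood at 2.17, 1.52 and 1.6 CPM in colon and 442.1, 246.6 and 629.4 CPM in ileum, a log2 difference of -7.96 ± 0.92 (adjusted p = 0.000163). CCR9, its receptor on gut-homing lymphocytes (chromosome 13, 29033609 to 29051227), stood at 0.723, 1.06 and 1.48 CPM against 17.4, 23.7 and 29.9 CPM (-4.43 ± 0.67, adjusted p = 0.000859). Both ligand and receptor were called in every omission and against HF 2 alone (adjusted p = 0.00776 and 0.0191). General T cell genes did not pass: CD8A stood at 50.8, 31.4 and 64.3 CPM in colon and 98.8, 113.2 and 115.5 CPM in ileum (adjusted p = 0.624). Among 21 T and NK cell genes 0 were called in edgeR, DESeq2 or limma voom with all 24 libraries (1 with an unadjusted p under 0.05). For 7 of them all colon libraries lay below all ileum libraries, where 15.8% of all tested genes did. In the 6 HF libraries alone, 5 were called lower. PIGR, which carries IgA across the epithelium, stood at 16813.2, 1220.4 and 18801.0 CPM in ileum and 2844.5 to 4566.0 CPM in colon (adjusted p = 0.68). The survival factor TNFSF13B was lower in colon (13.2 to 19.3 against 157.1, 45.9 and 347.5 CPM, adjusted p = 0.0313), and its call was kept among the omissions only without HF 2 (up to 0.171 otherwise, and 0.238 with the replicate block). Of 19 plasma cell, IgA and homing genes 3 were lower and 0 higher (median -1.31), with 3 lower without HF 2 and 2 without HF 1 and HF 3. The part of the sums given above for B cell genes and for plasma cell, IgA and homing genes in these results was not tested.

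Hormone genes of the upper gut were called through 2 of the ileum libraries. Of 23 enteroendocrine genes 2 were lower in colon and 0 higher (median -1.43), with 3 lower without HF 2 and 0 without HF 1 and HF 3. CCK, which triggers bile and enzyme release, stood at 113.6, 4.2 and 72.7 CPM in ileum and at 0, 0 and 0.228 CPM in colon (adjusted p = 0.00958), and GIP was also called (adjusted p = 0.0342). Without ileum HF 1 and HF 3 the adjusted p was 0.405 for CCK and 0.79 for GIP. CCK was not called without colon HF 1 or HF 2 (up to 0.0679), and GIP not without any colon library, ileum HF 1 or ileum HF 3 (up to 0.164). GCG, the glucagon-like peptide precursor, stood at 70.9, 104.2 and 59.3 CPM in colon and 0.548, 127.6 and 4.47 CPM in ileum (0.82 ± 1.75, adjusted p = 0.911). PYY stood at 3.2 to 39.5 CPM in colon and 4.54 to 16.3 CPM in ileum (adjusted p = 0.734).

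On the colonic side, genes of butyrate uptake were among the calls. SLC16A1, the monocarboxylate transporter MCT1 (chromosome 4, 107510920 to 107547609), stood at 2426.8, 1377.3 and 1700.4 CPM in colon and 171.1, 89.4 and 165.0 CPM in ileum, a log2 difference of 3.69 ± 0.6 (adjusted p = 0.00151). BSG, the chaperone that brings MCT1 to the membrane, stood at 1141.7, 810.3 and 1021.2 CPM against 215.2, 156.5 and 236.1 CPM (2.29 ± 0.55, adjusted p = 0.0263). The tissues did not overlap for either gene, and SLC16A1 was called in every omission of 1 library, while BSG was lost in all 6 (adjusted p 0.0507 to 0.104, and 0.0662 with the replicate block). Against HF 2 alone the adjusted p was 0.103 for SLC16A1 and 0.39 for BSG, with log2 differences of 4.41 and 2.72. The sodium-coupled transporters went the other way. SLC5A8 stood at 1.18, 9.68 and 2.74 CPM in colon and 334.4, 138.6 and 378.6 CPM in ileum (-5.96 ± 1.37, adjusted p = 0.02), and was not called without colon HF 1, colon HF 3, ileum HF 1 or ileum HF 3 (up to 0.117), nor with the replicate block (0.102). SLC5A12 stood at 0.0657, 0 and 0 CPM against 102.2, 321.0 and 88.0 CPM (adjusted p = 0.00301, and 0.0191 against HF 2 alone). The list of uptake and sensing genes had 3 higher and 2 lower calls of 22 (median 0.29), 2 and 2 without HF 2, and 0 and 1 without HF 1 and HF 3. Among the rest, ACADS, which opens butyrate oxidation, stood at 199.9, 220.0 and 256.7 CPM against 68.3, 83.3 and 80.5 CPM (1.54 ± 0.51, adjusted p = 0.121, and 0.00275 in the 6 HF libraries alone). The receptor FFAR2 stood at 0.592 to 0.97 CPM in colon and 1.49 to 4.76 CPM in ileum (adjusted p = 0.209).

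Surface mucins and the enzymes that decorate mucin were called mainly upward, 7 higher and 1 lower of 33 (median 0.8). Over all genes 1.28% were called higher and 1.76% lower. MUC12, a membrane mucin (chromosome 3, 8795745 to 8806798), stood at 967.0, 805.7 and 564.3 CPM in colon and 1.64, 1.44 and 1.3 CPM in ileum, a log2 difference of 9.05 ± 1.75 (adjusted p = 0.00591). ST6GALNAC6, a sialyltransferase, stood at 341.2, 498.8 and 371.4 CPM against 44.9, 67.9 and 47.6 CPM (2.92 ± 0.51, adjusted p = 0.00307). B3GNT7, an N-acetylglucosaminyltransferase, stood at 13.3, 18.8 and 15.0 CPM against 0, 0.313 and 0.0931 CPM (adjusted p = 0.00558). Each of these 3 was called in every omission of 1 library, and MUC12 missed the threshold with the replicate block (0.054). C1GALT1, which builds the core of mucin sugars, stood at 132.4, 145.0 and 143.1 CPM against 50.4, 53.5 and 56.2 CPM (1.39 ± 0.29, adjusted p = 0.0105), and lost its call without ileum HF 1 (0.0616). GAL3ST2, a sulfotransferase, varied within colon (243.4, 63.5 and 6.39 CPM against at most 0.704 CPM, adjusted p = 0.037), and was called among the omissions only without colon HF 3 (up to 0.165). FUT8, the core fucosyltransferase of N-glycans, was the lower member (41.2 to 51.3 CPM against at least 66.2 CPM, adjusted p = 0.0155). Its call was kept only without ileum HF 2 (up to 0.131 in the other omissions, and 0.0961 with the replicate block). The secreted mucus showed no call: of 19 goblet cell genes 0 passed in edgeR or limma voom (2 with an unadjusted p under 0.05), and DESeq2 called 1 higher and 1 lower. MUC2, the gel-forming mucin, stood at 1414.8, 3998.6 and 1046.1 CPM in colon and 1177.2, 1258.6 and 915.8 CPM in ileum (0.95 ± 1.07, adjusted p = 0.787). Without HF 2 the mucin list had 4 higher and 1 lower calls, and without HF 1 and HF 3 it had 0 of either (MUC12 adjusted p = 0.39 at a log2 difference of 9.12).

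Epithelial oxidases that release hydrogen peroxide or superoxide towards the lumen were higher in colon. DUOX2 (chromosome 1, 126620468 to 126641406), the peroxide-producing oxidase, stood at 85.4, 138.6 and 222.7 CPM in colon and 3.52, 8.46 and 8.85 CPM in ileum, a log2 difference of 4.42 ± 0.83 (adjusted p = 0.00491) that was called in every omission of 1 library. Its maturation factors were called with all libraries, DUOXA1 at 7.63, 20.9 and 40.2 against 1.25, 2.51 and 1.68 CPM (adjusted p = 0.0264) and DUOXA2 at 4.34, 15.8 and 22.2 against 0.626, 0.94 and 1.02 CPM (adjusted p = 0.0335), and only without colon HF 1 among the omissions (up to 0.134 and 0.157). NOX1, the superoxide-producing colonic oxidase, stood at 33.0, 20.2 and 156.9 CPM against 0.235, 0.627 and 0.745 CPM (7.02 ± 1.51, adjusted p = 0.013). It lost its call without colon HF 3, ileum HF 1 or ileum HF 3 (up to 0.0888). With the replicate block the adjusted p was 0.0778 for NOX1 and 0.0627 for DUOXA2, and the list had 2 higher calls. Colon HF 3 was the highest library for DUOX2, both maturation factors and NOX1. PGLYRP2, a peptidoglycan amidase, was the 1 lower call among 27 defence genes (median 0.52, 4 higher), at 1.97, 0.821 and 0.913 CPM against 12.9, 16.2 and 13.6 CPM (adjusted p = 0.00258, and 0.0435 against HF 2 alone). Against HF 2 alone the oxidase genes were not called (adjusted p = 0.349 for DUOX2, 0.567 for DUOXA1, 0.552 for DUOXA2 and 0.446 for NOX1). The list had 2 higher and 1 lower calls without HF 2, and 0 and 1 without HF 1 and HF 3.

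Of 39 tested genes of salt and water transport 0 were called in edgeR's model of 24 libraries (16 with an unadjusted p under 0.05), while limma voom called 1 higher, DESeq2 8 higher and 2 lower, and the fit to the 6 HF libraries alone 13 higher and 2 lower. Without HF 2, 2 were higher and 1 lower, and without HF 1 and HF 3, 0 were called. The median log2 difference was 0.91. All colon libraries lay above all ileum libraries for 21 genes and below them for 6, where 14.3% and 15.8% of all tested genes did. SLC26A3, the apical chloride-bicarbonate exchanger, stood at 4931.6, 1992.9 and 2115.8 CPM in colon and 381.7, 276.9 and 113.5 CPM in ileum (3.55 ± 1.31, adjusted p = 0.179, and 0.0135 in the 6 HF libraries alone). SLC9A3, the sodium-hydrogen exchanger, stood at 440.8, 240.3 and 660.1 CPM against 38.3, 36.4 and 42.5 CPM (adjusted p = 0.132, and 0.00315 in the 6 alone). The sodium channel subunit SCNN1A stood at 66.3, 56.3 and 31.7 CPM against 1.8, 8.84 and 1.3 CPM (adjusted p = 0.109). SCNN1G, the gamma subunit, was at 5.46 and 3.64 CPM in colon HF 1 and HF 2 and at 0 in colon HF 3 and in ileum (adjusted p = 0.131), so that colon HF 3 was the lowest colon library, as for HOXB13. CLDN15, a sodium-permeable claudin of the small intestine, was the 1 call among 23 junction genes, where 3.04% of all genes were called. Its level was 2.89, 16.0 and 1.48 CPM in colon and 273.4, 77.1 and 270.4 CPM in ileum (-4.93 ± 1.13, adjusted p = 0.0202). CLDN15 was not called without colon HF 1, colon HF 3, ileum HF 1 or ileum HF 3 (up to 0.121), nor with the replicate block (0.124).

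Lipid synthesis gave mixed calls, 1 higher (SCD) and 2 lower (MLXIPL and ELOVL7) of 15 (median 0.43), 0 and 2 without HF 2, and 0 and 0 without HF 1 and HF 3. SCD, which desaturates stearate, stood at 861.1, 211.0 and 901.9 CPM in colon and 91.1, 62.5 and 68.9 CPM in ileum (3.15 ± 0.82, adjusted p = 0.041), and PPARG, a nuclear receptor of colonocytes and adipocytes from the list of regulators, at 82.6, 50.3 and 114.1 CPM against 11, 5.08 and 5.96 CPM (3.48 ± 0.77, adjusted p = 0.0158). SCD was called among the omissions only without colon HF 2 (up to 0.159), and PPARG was lost without colon HF 3, ileum HF 2 or ileum HF 3 (up to 0.089). With the replicate block the adjusted p was 0.142 for SCD and 0.102 for PPARG, and the lipid synthesis list had 0 higher and 1 lower calls. Adipocyte genes also leaned to colon. Within colon, SCD, PPARG, ADIPOQ and the adipocyte sum (171.6, 206.3 and 507.2 CPM) were all highest in HF 3. The lowest colon library was HF 2 for SCD and PPARG and HF 1 for ADIPOQ and the sum. None of the 8 adipocyte genes was called in edgeR or limma voom (4 with an unadjusted p under 0.05, and 3 called higher in DESeq2). Their median log2 difference was 3.11, and 5 had all colon libraries above all ileum libraries, where 14.3% of all tested genes did. ADIPOQ, an adipocyte hormone, stood at 24.5, 53.9 and 110.1 CPM in colon and 0.156, 2.69 and 0 CPM in ileum, and their part in the SCD and PPARG results was not tested. MLXIPL, the carbohydrate-responsive factor of lipogenesis, was lower in colon (4.21, 5.81 and 6.85 against 26.4, 30.0 and 24 CPM, adjusted p = 0.00554).

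**Figure D4:**
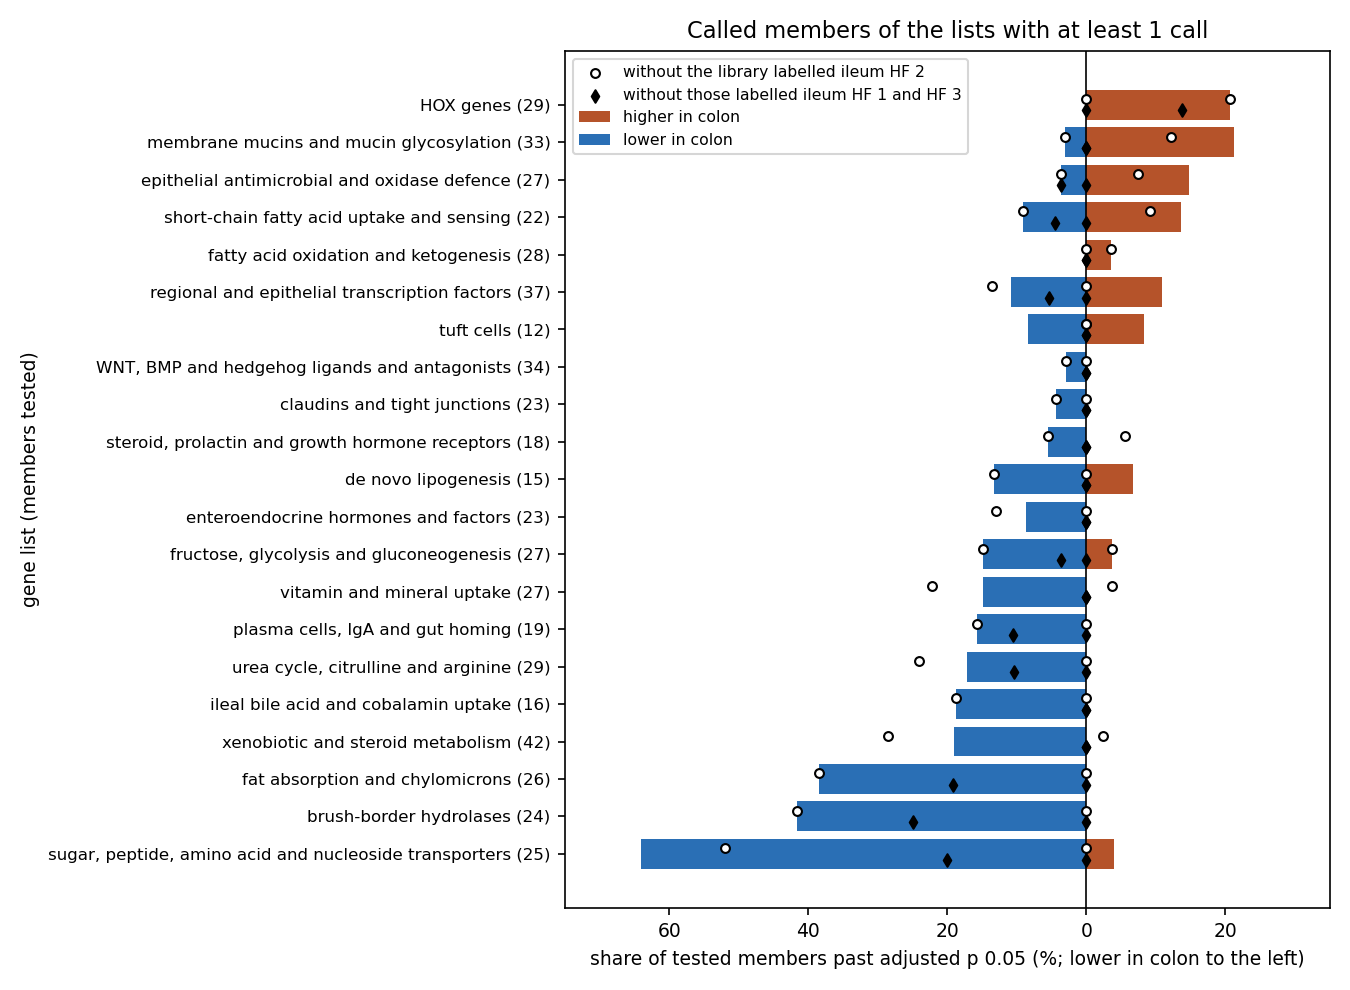
Share of tested members called in each list with at least 1 call (x axis, percent, lower in colon to the left of 0 and higher to the right), with all libraries (bars), without ileum HF 2 (circles) and without ileum HF 1 and HF 3 (diamonds). The sugar, peptide, amino acid and nucleoside transporters have 16 of 25 members lower in colon, and over all genes 1.76% were lower and 1.28% higher.

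In 22 of the 43 lists, with 442 memberships tested, 0 genes were called in edgeR (43 with an unadjusted p under 0.05), while DESeq2 called 18, limma voom 2, and edgeR in the 6 HF libraries alone 55. These included lists of cell cycle, antigen presentation, interferon-stimulated, cholesterol synthesis, oxidative phosphorylation, circadian and core PI3K-Akt genes. AKT1 stood at 175.4, 152.0 and 194.5 CPM in colon and 142.2, 123.1 and 115.3 CPM in ileum (0.46 ± 0.16, adjusted p = 0.16), and PIK3CA differed by -0.21 ± 0.63 (adjusted p = 0.94). LGR5, the crypt stem cell receptor, differed by -0.48 ± 0.75 (adjusted p = 0.868). PRLR, the prolactin receptor, was the 1 call among 18 hormone receptors, where 3.04% of all genes were called. Its level was 0.0657, 0.586 and 0.228 CPM in colon and 9.39, 3.57 and 14.9 CPM in ileum (adjusted p = 0.00795). PRLR was not called without colon HF 1 or HF 3 (up to 0.058), nor with the replicate block (0.0555). The 8 genes higher in colon in all 3 fits were HOXA11, HOXA13, HOXD10, HOXD11, SOWAHC, PPP1R9A, CAPN2 and IL17RC, of which the last 4 were named after their values were seen. CAPN2, a calcium-dependent protease, stood at 582.5, 448.2 and 427.1 CPM in colon and 73.7, 70.9 and 54.3 CPM in ileum (log2 difference 2.87, adjusted p = 0.000231). IL17RC, a subunit of the interleukin-17 receptor, stood at 27.9, 20.1 and 23.6 CPM against 5.63, 4.07 and 4.84 CPM (log2 difference 2.3, adjusted p = 0.000255).

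The same contrast was set beside those of the other diets, which use other libraries and share only the estimate of spread. The ileum groups also differed in regional genes. FABP6 stood at 4262.3, 8418.9 and 827.5 CPM in ileum HF 2, LF 1 and HN 2, where GATA4 stood at 0.689, 0.573 and 1.09 CPM. In the LN ileum libraries FABP6 stood at 0.201, 6.94 and 0.324 CPM and GATA4 at 160.6, 110.9 and 78.0 CPM. The part of this mix in the comparison of diets was not tested. Colon against ileum gave 69 higher (0.44%) and 269 lower (1.72%) genes on LF, 157 (1%) and 519 (3.31%) on LN, and 199 (1.27%) and 254 (1.62%) on HN. Of the 200 genes higher on HF, 199, 197 and 200 had the same sign on LF, LN and HN, and 51, 82 and 104 were called there. Of the 276 lower genes, 275, 275 and 276 had the same sign and 178, 224 and 172 were called. For HOXA13 the log2 difference was 12.79, 12.66 and 10.85 on LF, LN and HN beside 12.69 on HF, and for OAT it was -3.1, -3.43 and -3.11 beside -3.19. SLC16A1 differed by 1.81, 2.4 and 2.74 on the other diets beside 3.69 on HF, and was called on LN and HN (adjusted p = 0.0204 and 0.0144) and not on LF (0.097). Smooth muscle genes had median log2 differences of 1.79, 2.73 and 3.48 on LF, LN and HN, against 0.28 on HF. With their mean level as a covariate, edgeR called 0 genes for HF minus LF, HF minus HN or HF minus the mean of the others. Their part in the counts of each diet given here was not tested.

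A difference between diets in the colon-ileum difference was tested directly. In edgeR 0 of 15675 genes were called for HF minus LF, HF minus HN or HF minus the mean of the other 3 diets (0% each), and the smallest adjusted p was 0.855 for the first and 1.0 for the others. An unadjusted p under 0.05 was reached by 501, 251 and 334 genes. The share of true changes that these contrasts would call was not simulated, so 0 calls do not show that the diets were alike. Limma voom also called 0, and DESeq2 called 2, 2 and 3 (CYP2C34, PGA5, ACTA1 and GYS2).

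**Figure D5:**
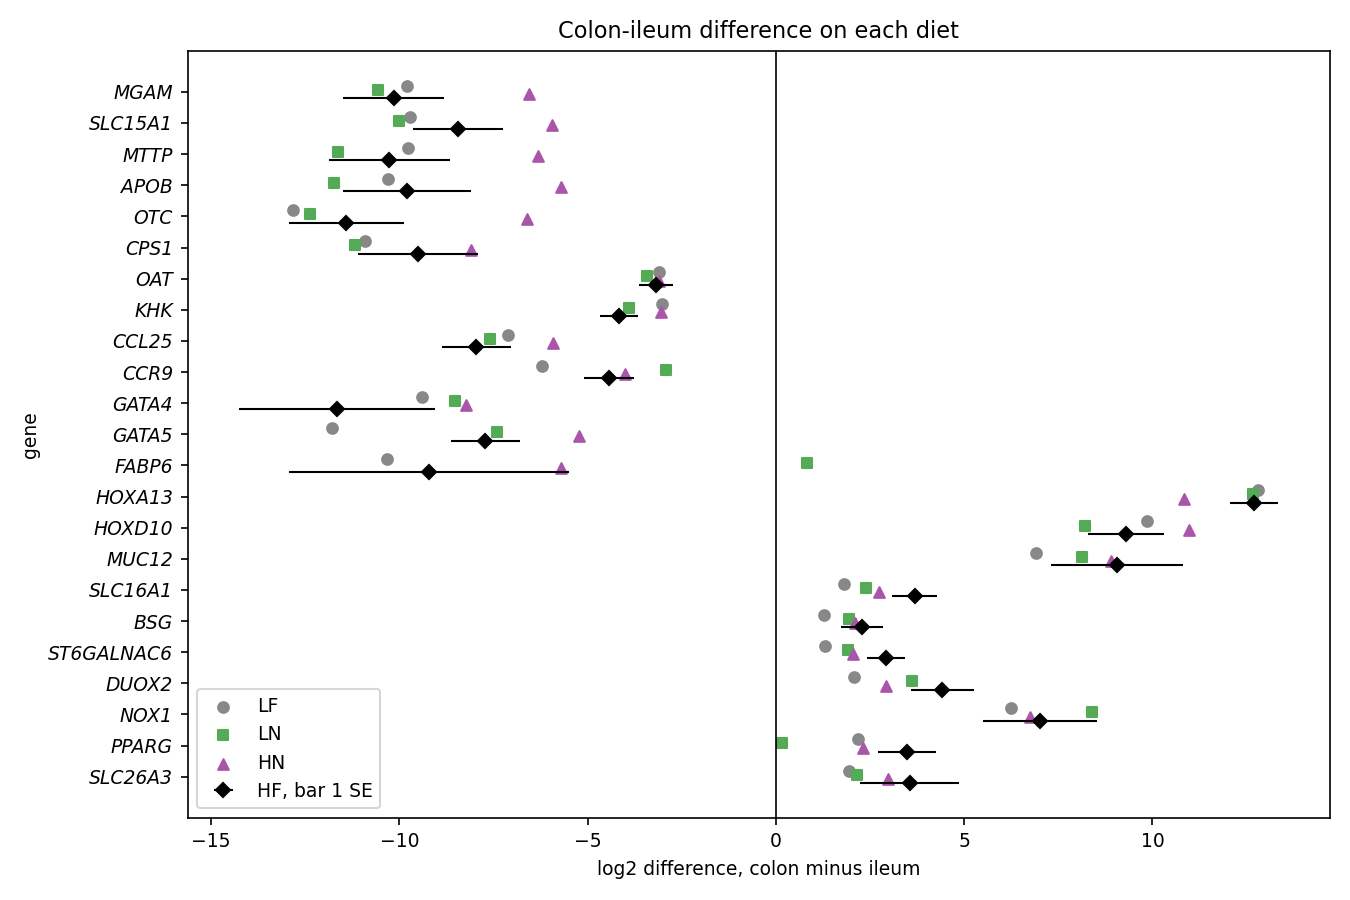
Log2 difference, colon minus ileum, of 23 genes on HF (black diamonds, bar 1 SE) and on LF, LN and HN (grey circles, green squares, purple triangles). HOXA13 lies between 10.85 and 12.79 on the 4 diets and OAT between -3.43 and -3.1. In edgeR 0 genes were called for a difference between HF and the other diets, which does not show that the diets were alike.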

How the data were processed

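Poly(A) RNA from 24 libraries was sequenced in paired-end mode. Per the submitters' processing notes, fastp 0.22.0, HISAT2 2.1.0 and HTSeq 0.9.1 were used with Sscrofa11.1, and their settings, the use of strand included, are not given in the sources used here. The authors deposited raw read counts per gene for 20674 genes. The deposited FPKM values follow from the counts (largest relative difference 2.1e-07) and were not used, and the deposited gene length (another unit, in bases) served only for a length correction. All genes matched RefSeq by gene ID, and 4137 have a locus number for a symbol.

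Genes were filtered with filterByExpr, scaled by TMM and fitted with edgeR 4.0.16 (R 4.3.3) as 8 group means. The common dispersion, as its square root, came to 0.472 over 24 libraries and 0.3 over 6. Log2 CPM values used a prior count of 2, while the fitted log2 differences used the default prior count of edgeR's fit. Benjamini-Hochberg adjustment ran over all 15675 tested genes at 0.05. DESeq2 1.42.0 and limma 3.58.1 served as alternatives. A fold against a tissue at 0 uses a floor of 3 counts per library (mean 0.181 CPM in colon, 0.234 in ileum). Tested on simulated data, the pipeline called 2 of 15328 unchanged genes.

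Genes were named as the 10 each way with the largest ratio of means among called genes without overlap that have a symbol of their own and no locus number, a mean under 3 counts per library being raised to that floor, a set of anchor genes, and up to 4 called members of each list each way. ACADS, ACE, HKDC1, ADIPOQ, FFAR2, HOXA10, HOXB6, NAGS, SLC25A15, SLC2A2, SLC9A3, CYP2C34, PGA5, ACTA1 and GYS2 were added after their values were seen. Members, the 43 lists and tests were chosen with earlier results of these data known. Near-identical copies, overlapping genes and antisense genes may share or split reads. Correlations of deviations from the group means were 0.31, 0.17 and 0.21 for same-numbered HF libraries, against -0.17 to -0.03 for other numbers. On the other diets they were -0.37 to 0.21 for the same numbers and -0.35 to 0.36 for other numbers. Deviations from a mean of 3 libraries are tied to each other, so this check cannot decide whether the numbers pair the HF samples. No label states a shared animal. Some genes are not reported here.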

Additional observations from a re-analysis of the deposited data

How the results depend on the processing

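Counts of genes higher and lower in colon (200 and 276) came to 519 and 541 with DESeq2, 811 and 570 in the 6 HF libraries alone, and 47 and 124 past 2-fold. A smooth muscle covariate gave 411 higher and 411 lower genes. The counts were within 1.5 times the main ones with RLE scaling, no low-count filter, limma voom and the length correction. With a replicate block they were 123 and 180 in all 24 libraries and 745 and 479 in the 6. Leaving out 1 library gave 76 to 146 higher and 124 to 329 lower genes, and leaving out ileum HF 1 and HF 3, an alternative chosen after seeing the data like the block in 6 libraries, gave 8 and 61. Why these counts moved was not tested. DESeq2 called 2, 2 and 3 genes in the differences between diets (HF minus LF, minus HN, minus the others). Of 88 named genes called, 0 changed sign under any alternative run, and 48 were called in all 6 omissions of 1 library; the replicate block in 24 libraries kept 66. Named genes that changed sign were all uncalled: SLC10A2 came to 2.76 with limma voom and 3.74 and 2.52 with the block in 24 and 6 libraries. Over the omissions of 1 library the log2 difference ranged from -2.99 to 5.67 for SLC10A2, -1.35 to 0.11 for SLC51A, -0.01 to 0.19 for HNF4A, -2.37 to 0.71 for MS4A1 and -0.38 to 0.03 for PIK3CA, each changing sign without ileum HF 2, from -0.29 to 0.71 for FABP1 (negative without that library and, at -0.15, without colon HF 3), and from -0.31 to 0.03 for ACTG2 (positive without ileum HF 3). Without ileum HF 1 and HF 3, TFF3 came to 0.17, GCG to -0.66, LGR5 to 0.23, PIGR to 1.73, CCL28 to 1.22, ACTG2 to 0.11 and ASS1 to -0.41. A planned search of promoters for motifs was not run, since no sequences were used here. Outliers were not tested in groups of 3.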

Other observations

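Genes named only by a locus number made up 9 of the 200 genes higher in colon and 36 of the 276 lower ones; those named here were chosen after their values were seen, and copies of a family may share reads. Butyrophilin genes, a family that shapes intestinal gamma-delta T cells, were lower in colon for 9 of 13 tested members (14 in the table) and higher for 0. Over all genes 1.76% were called lower. LOC100513868, butyrophilin-like protein 1 (chromosome 7, 24764445 to 24773528), stood at 229.6, 226.3 and 275.1 CPM in ileum and 0.131, 0.235 and 0.114 CPM in colon (edgeR adjusted p = 0.000528, and 0.00912 against the library labelled ileum HF 2 alone). LOC102158214, butyrophilin subfamily 1 member A1-like (chromosome 7, 24725373 to 24759750), stood at 171.4, 120.9 and 186.0 CPM in ileum and 0.394, 0.352 and 0.114 CPM in colon (adjusted p = 0.000309). BTNL2 stood at 264.5, 197.2 and 388.6 CPM in ileum (adjusted p = 0.00448). The 3 ileum libraries were close for LOC100513868 although they differed in GATA4 and FABP6. LOC110256626, proline dehydrogenase 1, stood at 50.4, 44.1 and 51.7 CPM in ileum and 6.44, 5.92 and 7.88 CPM in colon (adjusted p = 0.000471). LOC100625897, lactase-phlorizin hydrolase, stood at 404.6, 1.94 and 548.4 CPM in ileum (adjusted p = 0.0331) and was called among the omissions of 1 library only without ileum HF 2 (up to 0.151 otherwise, and 0.0616 with the replicate block).

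On the colonic side, LOC100153915, carbonic anhydrase 1 (chromosome 4, 51343548 to 51353127), stood at 3281.5, 1436.8 and 3233.3 CPM in colon and 0.0782, 0.689 and 0 CPM in ileum (log2 difference 13.16 ± 2.1, adjusted p = 0.00129). LOC102158679, carcinoembryonic antigen-related cell adhesion molecule 5-like, stood at 4124.4, 2984.5 and 3747.5 CPM in colon and 1.41, 2.63 and 0.559 CPM in ileum (adjusted p = 0.00123). LOC100513844, a galactoside 3(4)-L-fucosyltransferase, stood at 95.5, 119.9 and 104.0 CPM in colon and 0.0782, 0 and 0 CPM in ileum (adjusted p = 0.000482). These 3 genes were called in every omission of 1 library and not against ileum HF 2 alone (adjusted p = 0.233, 0.238 and 0.0893). PI3, the protease inhibitor elafin, stood at 2118.3, 2022.7 and 1348.5 CPM in colon and 0.156, 242.5 and 0.186 CPM in ileum HF 1, 2 and 3, and did not pass (4.5 ± 2.68, adjusted p = 0.494).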
